A study of Homo sapiens with 108 samples.

Results

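The 41 mRNAs described here encode proteins that make ribosomes in the nucleolus. They were listed by name, as small nucleolar ribonucleoprotein (snoRNP) proteins, RNA polymerase I and its factors, and factors that assemble the pre-ribosomal subunits. The list was not drawn from measured values, but it was made with earlier results of these data known. All 41 were found among the 19761 genes of the series once the counts of all 3′ UTR intervals with the same Ensembl gene name had been added together. By role, 3 belonged to box C/D snoRNPs, 4 to box H/ACA snoRNPs, 5 were nucleolar organising proteins, 6 belonged to RNA polymerase I transcription, 9 to small subunit assembly and 14 to large subunit assembly. All 41 passed the filter on low counts in every comparison of level and of label.

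The study asked whether zinc finger proteins set RNA stability, by SLAM-seq in HEK293T, a transformed line grown from human embryonic kidney. Cells carried a lentiviral short hairpin RNA (shRNA) under puromycin selection, which targeted CNOT4, ZFP36L1, PHF7, MAZ, ZNF706, BRCA1, ZMAT3 or ZMAT5, and the controls carried a non-targeting hairpin (NT). All 9 arms received 4-thiouridine (4SU, 10 uM) for 24 h, with the medium changed every 8 h. They were then moved to 1 mM uridine, a chase that ended at 0, 2, 4 or 8 h. Each arm and time had 3 libraries, called biological replicates by the submitters. In SLAM-seq, alkylated 4SU is read as a T>C change, so the share of covered T positions with a T>C conversion measures how much labelled RNA is left, and the reads, which come from mRNA 3′ ends, measure the level of the mRNA.

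Ribosome synthesis begins when RNA polymerase I copies the ribosomal RNA genes into a long precursor. Box C/D snoRNPs methylate that precursor and box H/ACA snoRNPs convert uridines in it to pseudouridine, while the small subunit processome and a separate set of large subunit factors fold and cut it. Many genes of this pathway are known targets of the transcription factor MYC, which binds the E-box CACGTG together with MAX.

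That E-box was common in the promoters of these genes. Promoter sequence from RefSeq (GRCh38.p14, 250 bases before to 50 bases after the start site) was matched for 33 members, and 15 of the 33 (45.5%) held CACGTG, which reads the same on both strands, against 12.2% of the 11803 tested genes with a promoter. All 15 held it within 50 bases of the start site, where 5.02% of the tested genes held it. The windows of FBL, GAR1, RRP9, PES1, GNL2 and EBNA1BP2, whose levels were called in at least 1 knockdown, are printed on the strand of the gene with the E-box in capitals, to show how the flanks differ around the shared letters.
FBL, chr19:39846357-39846384, minus strand: gcgctcttttcCACGTGcgaaagccccg
GAR1, chr4:109815782-109815809, plus strand: ggccagaggggCACGTGgcgccggtgag
RRP9, chr3:51941893-51941920, minus strand: ggttcagctgcCACGTGagttctgcggc
PES1, chr22:30591881-30591908, minus strand: ccttggcagggCACGTGcgggaggaagt
GNL2, chr1:37595918-37595945, minus strand: tacgtcgtgcaCACGTGgtccggcgtgg
EBNA1BP2, chr1:43172241-43172259, minus strand: cgattcggtggCACGTGga

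The other motifs searched, on both strands, were GGGAGGG, the core of the sequence that MAZ binds, and CCGGAAG, the core of the ETS family site. GGGAGGG stood in 33.3% of the members' promoters and 39.9% of those of all tested genes, and CCGGAAG in 39.4% and 20.5%. A match is a description of the letters and not a measured site.

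Library depth ran between 63659 and 30750027 reads in 3′ UTR intervals, with a median of 14870063, and 2 libraries had under 2000000 reads, replicate 3 of PHF7 at 8 h with 63659 and replicate 3 of CNOT4 at 2 h with 1781724. The targeted mRNA was lower in the MAZ, ZMAT3, ZMAT5 and ZNF706 knockdowns. It did not pass the test in the BRCA1, PHF7 and CNOT4 libraries, with a log2 change of -0.04 for CNOT4 (adjusted p 0.954), and ZFP36L1 mRNA was higher in the libraries labelled ZFP36L1, by 0.80 (adjusted p 0.00233), so the groups are named here by their labels. CNOT4 and ZFP36L1 libraries also stood apart from the rest in the number of T positions covered per read, 27.7 to 34.0 and 25.9 to 33.04, against 37.1 to 37.8 in NT. Reads that mapped to several places made up 5.82% to 11.9% of CNOT4 reads and 9.21% to 12.4% of ZFP36L1 reads, against 6.66% to 6.91% in NT. Hairpin and kind of library therefore cannot be told apart in the differences of these arms from NT. Of the 6 HEK293T markers all were detected in NT (VIM near 708 CPM, reads scaled to a fixed library total), and none of the markers of other cell types passed a test. In bulk RNA, fewer cells of a kind and less RNA per cell cannot be told apart.

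Levels are given as CPM scaled by the trimmed mean of M-values (TMM) over all libraries of the series, as the lowest, median and highest library of an arm, with both libraries under 2000000 reads left out of these ranges (n = 12 per arm, 11 for PHF7 and CNOT4). Changes are log2 knockdown over NT ± standard error from edgeR's quasi-likelihood test with chase time as a factor, fitted per knockdown with its 12 libraries and the 12 NT libraries. A gene was called when its Benjamini-Hochberg adjusted p was under 0.05 and its fold over 1.2. All 8 comparisons share the same NT libraries, so their values stand side by side here and are not independent of each other.

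Most members differed between arms somewhere in the series. In a single test across all 9 arms, 38 of 41 members had an adjusted p under 0.05, against a background of 65.5% of 14962 genes, and the median F statistic was 7.52 among members and 3.43 among all genes. RRS1, NCL and GAR1 varied most. Against NT, 5 members (GNL3, NOP14, POLR1A, POLR1C and POLR1D) were called in no knockdown, 18 were called only down, 14 only up, and NOP16, RRP1, UTP4 and WDR12 were called up in some knockdowns and down in others. The share of all genes called in any of these comparisons was not counted, so these counts have no background. The most members were called in ZFP36L1 (26) and CNOT4 (21) libraries. In ZFP36L1 libraries 21.7% of all genes were called up and 18.3% down, and in CNOT4 libraries 13.5% and 13.5%. The calls of UTP4 and of RRN3, called only down, are uncertain, since 99.5% of the reads of each mapped to several places. GNL3, the nucleostemin GTPase, is uncertain in part of the arms, since reads that mapped to several places made up 67.5% of its reads in CNOT4 libraries and 73.8% in ZFP36L1 libraries, against 21.3% in NT, and with such reads left out its log2 change in ZFP36L1 libraries was -1.42. The GNL3 intervals also share bases with GLT8D1, where strand was not considered.

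**Figure D1:**
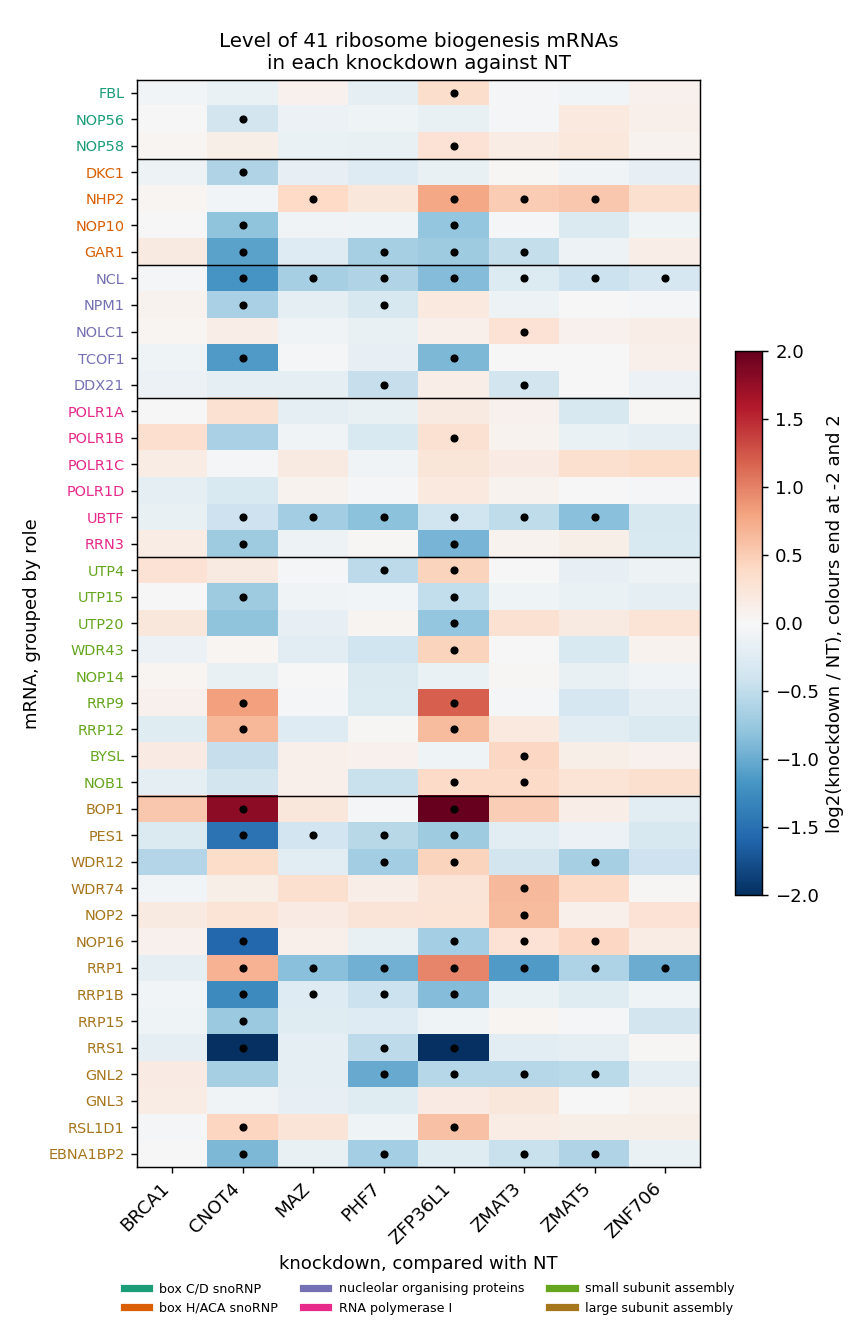
Log2 change of the level of each of the 41 members (rows, grouped by role) in each knockdown against NT (columns), with a black dot where the gene was called and colours that end at 2 in either direction. RRS1 reached -3.10 and -2.43 in the CNOT4 and ZFP36L1 columns, BOP1 rose in both, and the BRCA1 column holds no call.

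RRS1, a large subunit assembly factor that helps to bring the 5S RNA into the pre-ribosome, had the largest change of any member. Its level was 26.4, 38.9 and 55.6 CPM (lowest, median, highest) in CNOT4 libraries and 44.6, 65.3 and 76.8 CPM in ZFP36L1 libraries, against 281, 327 and 469 CPM in NT. Every CNOT4 and every ZFP36L1 library lay below every NT library. The log2 change was -3.10 ± 0.13 in CNOT4 (adjusted p 2.35e-17) and -2.43 ± 0.10 in ZFP36L1 (adjusted p 7.2e-21). In the MAZ, ZMAT3, ZMAT5, ZNF706 and BRCA1 arms RRS1 was not called, and all of these overlapped NT. PHF7 libraries held 231, 256 and 274 CPM of RRS1, below the lowest NT library, with a log2 change of -0.52 ± 0.16 (adjusted p 0.0323).

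**Figure D2:**
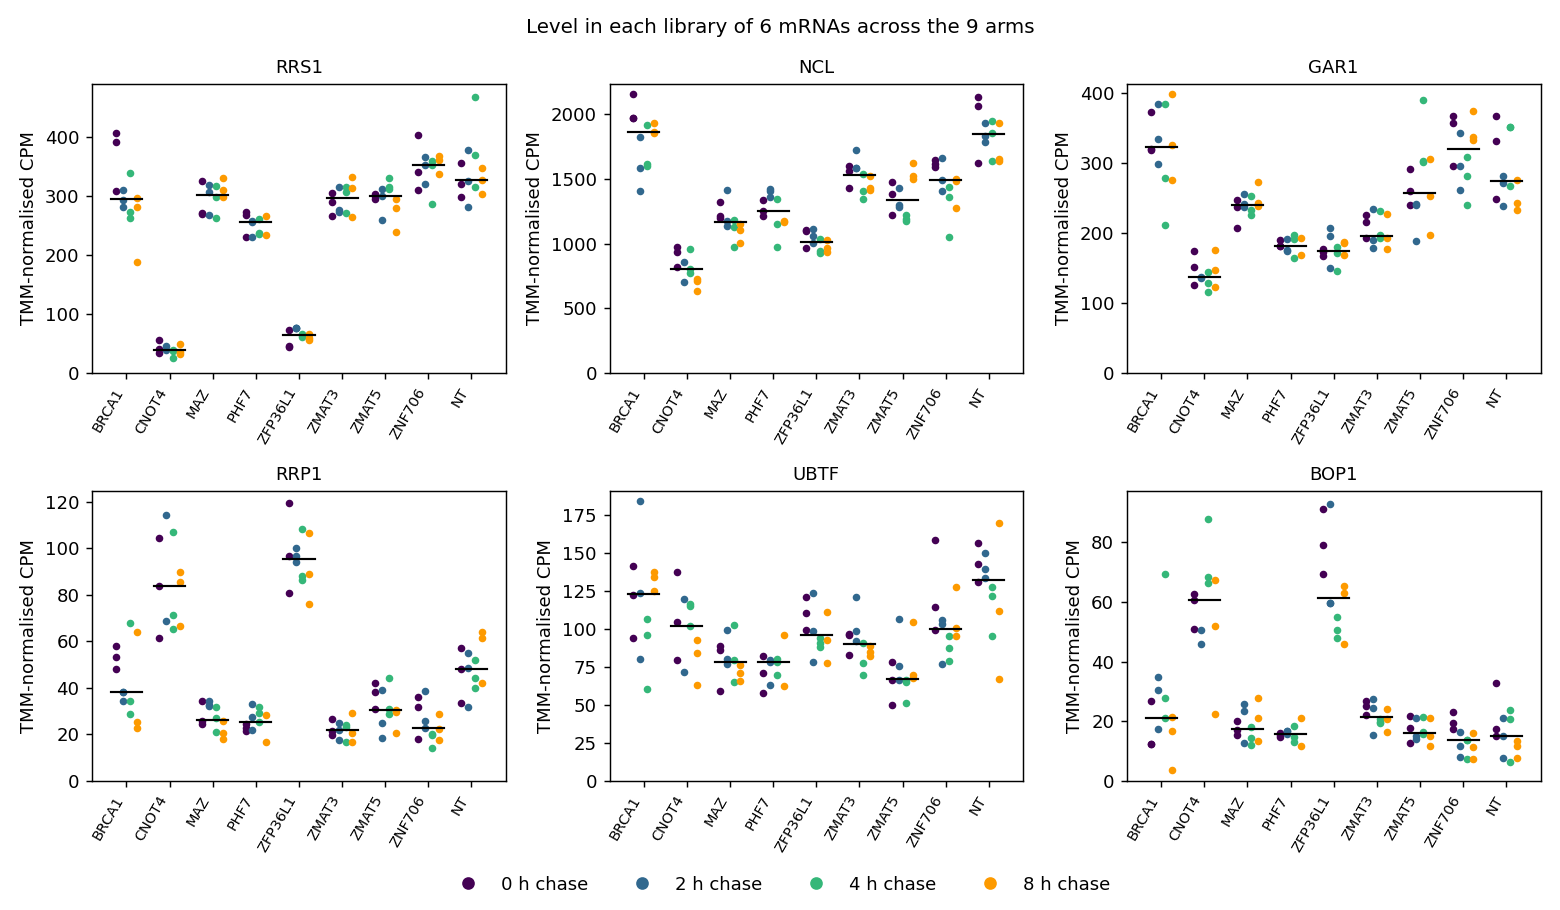
Level in TMM-scaled CPM (linear axes that start at 0) of RRS1, NCL, GAR1, RRP1, UBTF and BOP1 in every library of the 9 arms, NT at the right, with points coloured by chase time, a line at the median and both libraries under 2000000 reads left out. RRS1 was lower in CNOT4 and ZFP36L1 libraries than in every NT library, NCL was lower in most arms, and RRP1 lay above NT in CNOT4 and ZFP36L1 libraries and below it in MAZ, PHF7, ZMAT3, ZMAT5 and ZNF706 libraries by the median.

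The CNOT4 libraries had 5 members up and 16 down, where 13.5% of all 13308 genes tested were called up and 13.5% down. The median log2 change was -0.36 over the members and 0.08 over all genes. Groups that fell most often were the box H/ACA proteins, 3 of 4, the nucleolar organising proteins, 3 of 5, and large subunit assembly, 6 of 14 with 3 up. NOP16, a large subunit assembly factor, had 65.5, 95.9 and 144 CPM in CNOT4 libraries against 183, 263 and 324 CPM in NT, with no overlap (log2 -1.58 ± 0.29, adjusted p 7.9e-05). PES1, which forms the PeBoW complex with BOP1 and WDR12, had 32.1, 53.8 and 78.2 CPM against 95.1, 128 and 180 CPM in NT (log2 -1.48 ± 0.32, adjusted p 0.000652), again with no overlap. RRP1B, a nucleolar partner of protein phosphatase 1, had 96.1, 142 and 169 CPM against 251, 313 and 422 CPM (log2 -1.27 ± 0.11, adjusted p 1.75e-10), and every CNOT4 library was below every NT library.

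Partners of the same complex did not move together in CNOT4 libraries. BOP1 had 22.5, 60.7 and 87.8 CPM in CNOT4 libraries against 6.13, 15.0 and 32.8 CPM in NT, a log2 change of 1.79 ± 0.28 (adjusted p 9.97e-06) with overlapping ranges, while PES1 fell and WDR12 was not called. Its counts came from a 3′ UTR interval of 64 bases, so they rest on reads at the very end of the gene. TCOF1, the treacle protein that ties RNA polymerase I to early rRNA processing, fell by 1.13 ± 0.17 on the log2 scale (adjusted p 3.07e-06). The H/ACA core proteins GAR1, NOP10 and DKC1, the pseudouridine synthase, fell by 1.08, 0.81 and 0.60, whereas NHP2, the fourth of that particle, was not called. RRP9, a U3 snoRNP protein, RRP12, RRP1 and RSL1D1 rose by 0.82, 0.66, 0.69 and 0.43, but RRP12 was at -0.12 with the 0 h libraries alone, and its call was lost when any single replicate was left out. With the CNOT4 and NT libraries at 8 h left out, 15 members were called, 2 up and 13 down, and RRP9, RRP12 and RRP1 were no longer among them.

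The ZFP36L1 libraries had 13 members up and 13 down, against 21.7% of all genes up and 18.3% down, and the medians were 0.14 over members and 0.15 over all genes. RRS1 was followed in size by BOP1, with 46.0, 61.4 and 92.8 CPM against 6.13, 15.0 and 32.8 CPM in NT and no overlap (log2 2.04 ± 0.21, adjusted p 1.17e-09). RRP9, with 54.2, 72.1 and 122 CPM against 14.5, 35.5 and 51.8 CPM, also did not overlap NT (log2 1.19 ± 0.17, adjusted p 4e-07). RRP9 was counted over a 3′ UTR of only 78 bases. RRP1, a nuclear factor that takes part in large subunit maturation, had 76.0, 95.3 and 119 CPM against 31.6, 48.2 and 63.8 CPM (log2 0.98 ± 0.13, adjusted p 1e-07) without overlap.
RRN3, the factor that lets RNA polymerase I start on the promoter, had 60.9, 68.3 and 79.4 CPM in ZFP36L1 libraries against 92.3, 127 and 182 CPM in NT (log2 -0.93 ± 0.11, adjusted p 2.56e-08). These ranges were apart, but 99.5% of its reads mapped to several places, and with those reads left out the change was 0.66, so its direction is uncertain. The small subunit proteins counted 5 up, among them WDR43 (0.44 ± 0.12), and 2 down, UTP20 and UTP15. The box C/D proteins FBL, the methyltransferase, and NOP58 rose by 0.35 and 0.29.

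CNOT4 and ZFP36L1 libraries, which both stood apart from NT in kind of library as given above, shared a low level of MYC itself. MYC averaged 24.1 ± 11.05 CPM in CNOT4 libraries against 117 ± 38.9 CPM in NT (SD, n = 12 each; log2 -2.31, adjusted p 3.06e-06), and 32.5 ± 7.12 CPM in ZFP36L1 libraries against 111 ± 37.0 CPM in NT (log2 -1.77, adjusted p 4.13e-10). MYC was also lower in ZMAT5 libraries, with 64.2 ± 20.7 CPM against 110 ± 36.5 CPM (log2 -0.80, adjusted p 0.00246). Members with the E-box in the promoter had a median log2 change of -0.19, and members without it -0.39, in CNOT4, and these medians were -0.09 and 0.18 in ZFP36L1 and -0.11 and -0.02 in ZMAT5 (15 members with it and 18 without). The 8 members with no matched promoter, RRS1, RRP1B, TCOF1 and BOP1 among them, are in neither group. Whether the level of MYC had a part in any member's change was not tested.

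NCL, the abundant nucleolar protein nucleolin, fell in 7 of the 8 knockdowns. Its level was 635, 802 and 976 CPM in CNOT4 libraries, 927, 1017 and 1110 CPM in ZFP36L1 libraries, and 978, 1165 and 1417 CPM in MAZ libraries, against 1620, 1844 and 2137 CPM in NT. None of these arms overlapped NT. The log2 changes were -1.19 ± 0.07 in CNOT4, -0.87 ± 0.06 in ZFP36L1, -0.66 ± 0.06 in MAZ (adjusted p 1.03e-10), -0.60 ± 0.08 in PHF7, -0.43 ± 0.06 in ZMAT5, -0.33 ± 0.06 in ZNF706 (adjusted p 0.000255) and -0.28 ± 0.05 in ZMAT3. BRCA1 libraries, with 1406, 1860 and 2161 CPM, had a change of -0.03 ± 0.06 (adjusted p 0.992).

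GAR1, the H/ACA protein that helps the particle to bind and release its RNA substrate, was called down in 4 knockdowns. Its level was 115, 137 and 175 CPM in CNOT4 libraries, 146, 175 and 207 CPM in ZFP36L1 libraries and 164, 181 and 197 CPM in PHF7 libraries, against 232, 274 and 367 CPM in NT. These 3 arms lay below every NT library, while ZMAT3 libraries, at 176, 195 and 234 CPM, overlapped NT at their highest library. The log2 changes were -1.08 ± 0.12 in CNOT4 (adjusted p 1.28e-08), -0.72 ± 0.09 in ZFP36L1, -0.66 ± 0.10 in PHF7 and -0.48 ± 0.08 in ZMAT3.

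UBTF, the RNA polymerase I factor that holds the ribosomal RNA genes open, was called down in 6 knockdowns, by the most in ZMAT5 and PHF7. It had 49.95, 66.9 and 106 CPM in ZMAT5 libraries and 57.9, 77.8 and 95.8 CPM in PHF7 libraries, against 67.2, 132 and 170 CPM in NT. The ranges overlapped NT in both arms. The log2 changes were -0.83 ± 0.14 in ZMAT5 (adjusted p 4.16e-05), -0.82 ± 0.15 in PHF7 (adjusted p 0.000305), -0.70 ± 0.12 in MAZ (adjusted p 0.000109) and -0.51 ± 0.11 in ZMAT3 (adjusted p 0.00148). In the MAZ arm its level was 59.1, 78.2 and 102 CPM, and in the ZMAT3 arm 69.4, 89.7 and 121 CPM. The catalytic core subunits POLR1A, POLR1C and POLR1D were called in no arm, and POLR1B only in ZFP36L1 (0.30 ± 0.12, adjusted p 0.0473).

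The PHF7 libraries had 0 members up and 13 down, against 3.89% of all genes up and 4.53% down, and 34 of the 41 members had a change below 0. The median was -0.24 over members and 0.07 over all genes. GNL2, a GTPase of large subunit export, had 61.5, 76.5 and 92.4 CPM in PHF7 libraries against 119, 144 and 183 CPM in NT (log2 -1.01 ± 0.15, adjusted p 1.9e-05), with no overlap. Its 3′ UTR interval spans 41 bases and shares bases with DNALI1, where strand was not considered. Whether reads of DNALI1 were counted for GNL2 was not tested. RRP1 had 16.7, 25.3 and 32.998 CPM against 31.6, 48.2 and 63.8 CPM (log2 -0.96 ± 0.21, adjusted p 0.00302). WDR12 had 38.3, 49.1 and 74.5 CPM against 48.2, 73.3 and 141 CPM (log2 -0.70 ± 0.20, adjusted p 0.026), and EBNA1BP2, a large subunit assembly protein, had 157, 176 and 202 CPM against 185, 267 and 354 CPM (log2 -0.67 ± 0.12, adjusted p 0.000177). All 3 overlapped NT. Large subunit assembly held 7 of the 13 calls. Without replicate 1 the count of members called was 4, and without replicate 2 it was 5.

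The ZMAT3 libraries had 7 members up and 7 down, against 5.49% and 4.75% of all genes, and medians of 0.02 and 0.09. RRP1 had 16.5, 21.7 and 29.3 CPM in ZMAT3 libraries against 31.6, 48.2 and 63.8 CPM in NT, with no overlap (log2 -1.13 ± 0.17, adjusted p 1.5e-05). WDR74 and NOP2, a methyltransferase of 28S rRNA, were higher. WDR74 had 27.3, 39.0 and 58.0 CPM against 8.54, 29.7 and 41.6 CPM (log2 0.65 ± 0.22, adjusted p 0.0497), and NOP2 had 158, 180 and 214 CPM against 74.5, 111 and 173 CPM (log2 0.63 ± 0.11, adjusted p 0.000132). GNL2 was lower, at 86.9, 99.1 and 121 CPM (log2 -0.56 ± 0.09, adjusted p 4.45e-05). WDR74, NOP2 and GNL2 overlapped NT. The count of 14 was 8 without replicate 2 and 9 without replicate 3.

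In ZMAT5 libraries 2 members were up and 6 down (5.29% and 4.22% of all genes), with medians of -0.05 and 0.06. UBTF, WDR12, RRP1, EBNA1BP2 and GNL2 had the largest falls. WDR12 had 27.2, 47.2 and 83.6 CPM (log2 -0.67 ± 0.19, adjusted p 0.0203), RRP1 18.2, 30.4 and 44.3 CPM (log2 -0.61 ± 0.19, adjusted p 0.0355), EBNA1BP2 149, 188 and 228 CPM (log2 -0.61 ± 0.10, adjusted p 2.26e-05) and GNL2 86.0, 105 and 120 CPM (log2 -0.53 ± 0.10, adjusted p 0.000228), and all overlapped the NT ranges given above. NHP2 and NOP16 rose by 0.54 and 0.42.

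In MAZ libraries 1 member was up and 5 down (5.19% and 3.55% of all genes), with medians of -0.12 and 0.08. RRP1 had the largest change, with 18.0, 26.3 and 34.3 CPM (log2 -0.83 ± 0.18, adjusted p 0.00151), ahead of UBTF and NCL. The member called up was NHP2, an H/ACA protein, with 190, 220 and 275 CPM in MAZ libraries against 124, 165 and 240 CPM in NT (log2 0.39 ± 0.10, adjusted p 0.0113). Both overlapped NT, and the NHP2 interval shares bases with RMND5B. Upper-quartile scaling gave 2 up and 3 down, and 3 members were called without replicate 1. In ZNF706 libraries RRP1 and NCL were the only members called, both down (2.29% of all genes, against 2.85% up), where upper-quartile scaling gave 1 up and 2 down, and 1 was called without replicate 2. RRP1 was at 13.9, 22.4 and 38.5 CPM (log2 -0.99 ± 0.20, adjusted p 0.00124). In BRCA1 libraries no member was called by edgeR or by DESeq2, 2 had an unadjusted p under 0.05 (6.89% of all genes), and 0.0785% of all genes were called. RRP1 was thus called in 7 comparisons, up in CNOT4 and ZFP36L1 and down in the other five.

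Differences between the knockdowns themselves do not use the NT libraries. The comparisons of 1 arm with the mean of the other 4 share their libraries, and the 5 differences of a gene add up to 0, so a low value in 1 arm raises the others and they are not independent of each other. In PHF7 libraries against the mean of the MAZ, ZMAT3, ZMAT5 and ZNF706 arms, 10 members were called down and 0 up, where 8.76% of 14469 genes were called down and 8.11% up, and 37 of the 41 members had a change below 0 (median -0.21, against 0.04 over all genes). NOB1, the nuclease that makes the 3′ end of 18S rRNA, was lowest at -0.67 ± 0.09 (adjusted p 9.58e-09), with 91.9, 104 and 135 CPM in PHF7 libraries against arm medians of 138 in MAZ, 173 in ZMAT3, 159 in ZMAT5 and 159 in ZNF706. GNL2 and GAR1 followed at -0.62 ± 0.09 and -0.48 ± 0.07. In ZMAT3 libraries against the mean of the other 4 arms, PHF7 among them, 8 members were up and 1 down (5.78% and 5.55% of all genes). BOP1, NOP2 and WDR74 were highest there, at 0.45 ± 0.14, 0.42 ± 0.08 and 0.42 ± 0.13, and GAR1 was lower at -0.27 ± 0.06. The count of 9 was 4 without replicate 1 and 2 without replicate 2.

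The ZNF706 arm had 6 members up and 1 down against the other 4 (6.08% and 6.06% of all genes). GAR1 was highest at 0.51 ± 0.06 (adjusted p 4.72e-10), with 240, 320 and 373 CPM in ZNF706 libraries against medians of 181 in PHF7 and 195 in ZMAT3, and UBTF was at 0.40 ± 0.09. The count of 7 was 4 without replicate 2 and 3 without replicate 3. ZMAT5 had 3 up and 0 down (8.81% and 8.45% of all genes), the 3 being RRP1, NOP16 and DDX21, and MAZ had 2 up and 0 down (7.66% and 5.03%), GNL2 and EBNA1BP2, and 1 without replicate 1. ZFP36L1 libraries were compared with CNOT4 libraries at 0, 2 and 4 h only, with the 8 h libraries of both arms left out. There 7 members were up and 0 down, where 1.93% of genes were up and 1.26% down. They were RRP15 (0.75 ± 0.17), EBNA1BP2 (0.68 ± 0.14), RRS1 (0.67 ± 0.18), NPM1 (0.60 ± 0.08), DKC1, RRP1B and DDX21. Without replicate 1, or without replicate 2, the count was 0.

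**Figure D3:**
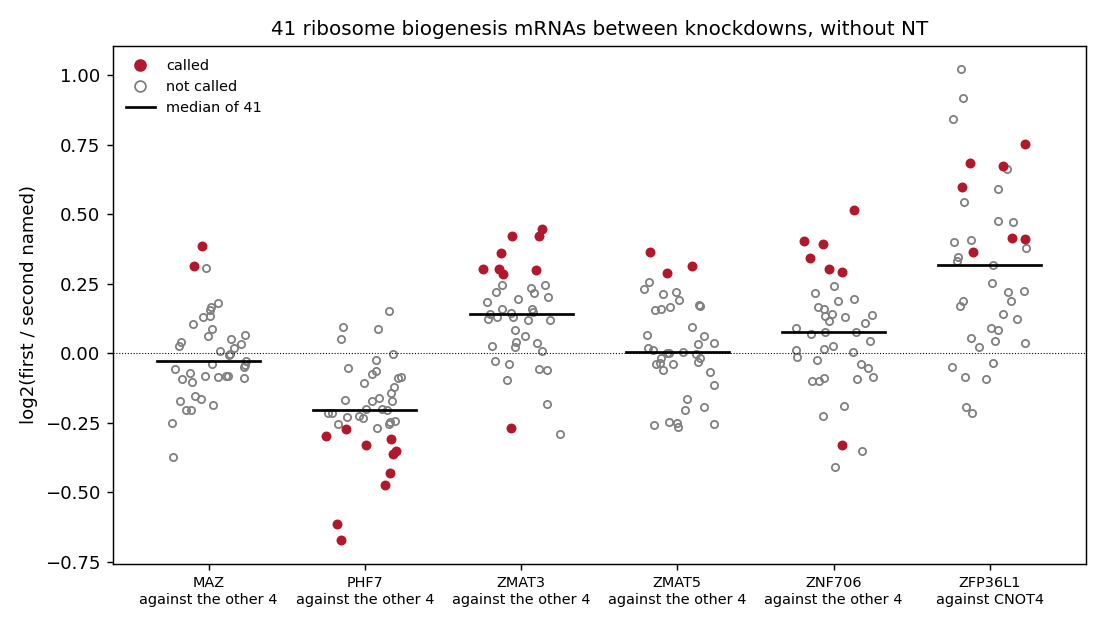
Log2 difference in level of each of the 41 members (points, red where called) in 6 comparisons between knockdowns, with a line at the members' median. Nearly all points lie below 0 for PHF7 against the other 4 (37 of 41), and most lie above 0 for ZMAT3 against the other 4 (33 of 41) and for ZFP36L1 against CNOT4 (35 of 41).

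NPM1, or nucleophosmin, the protein that builds the granular layer of the nucleolus, had the most reads of any member. It was called down in CNOT4 and PHF7 libraries, at log2 -0.65 ± 0.10 and -0.32 ± 0.07. Its change in CNOT4 libraries depended on chase time (adjusted p 3.1e-05, where 0.571% of all genes had an adjusted p under 0.05), with log2 changes of -0.27 at 0 h, -0.58 at 2 h, -0.32 at 4 h and -1.43 at 8 h. Scaled within this comparison, the 3 libraries held 2548, 3082 and 2512 CPM of NPM1 at 0 h, 2517, 2252 and 1981 at 2 h, 2669, 2379 and 2933 at 4 h and 1315, 1342 and 1146 at 8 h in CNOT4, against 3200 to 3534 CPM in the 12 NT libraries. The 3 CNOT4 libraries at 8 h were below every other library of the comparison. These 3 also stood apart as libraries. The file headers call them pulse-chase, where the other 105 of the series are called chase, 5.82% to 5.91% of their reads mapped to several places, against 9.34% to 11.9% in CNOT4 libraries at earlier times, and they covered 32.5 to 34.0 T positions per read, against 27.7 to 31.3. Of the NPM1 reads, 14.6% to 16.6% mapped to several places in the CNOT4 libraries at 8 h and 29.9% to 46.1% in those at earlier times, while the 12 NT libraries held 22.3% to 31.1%. With such reads left out the dependence on chase time was not called (adjusted p 0.601), nor was any member called with the 8 h libraries left out, so chase time and kind of library cannot be told apart here. With the CNOT4 library of 1781724 reads left out, NHP2 (adjusted p 0.00661) and FBL (adjusted p 0.00828) depended on chase time as well. In NT, at 8 h against 0 h, edgeR called 0 members and 0 genes of 11299, 2 members had an unadjusted p under 0.05 (4.67% of all genes), and DESeq2 called 1 member (0.767% of all genes).

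The loss of label over the chase measures how fast the mRNA made before it was removed. In NT, FBL lost label slowest, at 0.0324 ± 0.0229 per h (natural log scale, ± standard error), and its T>C rate was 1.15%, 0.812% and 0.812% at 8 h against 1.13%, 1.30% and 1.14% at 0 h, with overlap. NPM1, at 0.0599 ± 0.00795 per h, and NCL, at 0.0900 ± 0.0120 per h, were also slow. RRS1 lost label at 0.351 ± 0.0290 per h, with rates of 0.266%, 0.168% and 0.161% at 8 h against 3.22%, 3.54% and 2.55% at 0 h, which did not overlap. POLR1B (0.763 ± 0.0828 per h), UTP15, RRP1 and BYSL were fastest. The median was 0.210 per h over members and 0.20 per h over 7624 genes, and 22 members were above the value for all genes.

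Half-lives from a first-order fit were obtained in NT for 35 of the 41 members, with a median of 4.01 h, against 3.27 h over 5544 genes. These medians cover only mRNAs whose fit passed the R2 minimum. Over all 41 members the median loss was 0.210 per h, against 0.20 per h over 7624 genes. By role the medians were 9.19 h for nucleolar organising proteins (n = 5), 6.56 h for box H/ACA (n = 4), 5.08 h for box C/D (n = 3), 3.08 h for large subunit assembly (n = 12), 2.43 h for small subunit assembly (n = 7) and 2.29 h for RNA polymerase I (n = 4). The RNA polymerase I median rests on POLR1B, POLR1C, RRN3 and UBTF, and 99.5% of the RRN3 reads mapped to several places. POLR1A and POLR1D did not pass the R2 minimum. FBL had the longest, 26.5 h, which lies beyond the 8 h sampled. WDR74 had the shortest, 0.519 h, before the first chase sample at 2 h, and it rested on few conversions, 7 of 4364, 186 of 5541 and 0 of 778 covered T positions in the 3 libraries at 0 h. Half-lives of UTP15 (1.08 h), POLR1B (1.29 h), POLR1C (1.46 h) and WDR43 (1.996 h) also lay before that sample.

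Taking only members fitted in a knockdown and in NT, the median was 5.61 h in ZMAT3 against 4.01 h in NT (35 members), 5.76 h in ZMAT5 against 3.43 h (31 members), 5.25 h in PHF7 against 3.98 h (34 members), 4.74 h in MAZ against 3.94 h (33 members), 4.24 h in ZNF706 against 3.69 h (32 members), 4.27 h in BRCA1 against 3.43 h (29 members), 3.79 h in CNOT4 against 3.16 h (27 members) and 3.80 h in ZFP36L1 against 4.01 h (35 members). Single members went both ways, with 25 longer and 10 shorter in ZMAT3 and 19 longer and 16 shorter in ZFP36L1. Over all genes 82.5% were longer in ZMAT3 and 59.6% in ZFP36L1. The median log2 ratio was 0.25 over members in ZMAT3, against 0.54 over all genes, 0.47 in ZMAT5, against 0.37, 0.43 in PHF7, against 0.46, and 0.06 in ZFP36L1, against 0.14. It was 0.13 in MAZ, against 0.33, 0.16 in ZNF706, against 0.27, 0.15 in BRCA1, against 0.02, and 0.22 in CNOT4, against 0.23. No test was made on these ratios, since each arm gives a single curve per mRNA, and over single replicates the members' median was 4.28 ± 1.05 h in ZMAT3, 4.35 ± 0.247 h in ZMAT5, 4.89 ± 0.345 h in PHF7 and 3.35 ± 0.494 h in NT (SD, n = 3 each).

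**Figure D4:**
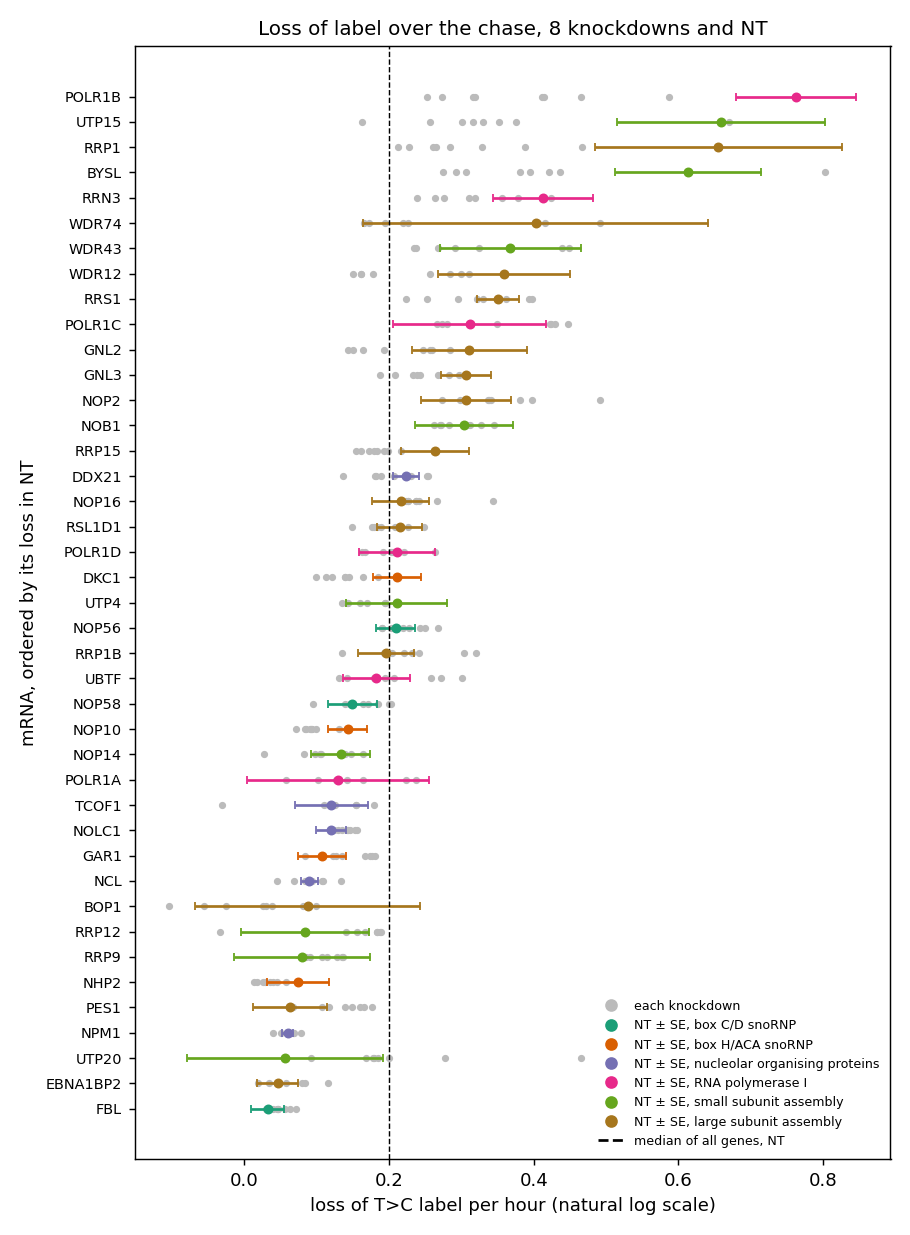
Loss of T>C label per hour for each member in NT (coloured by role, bars 1 standard error) and in each knockdown (grey), with a dashed line at the NT median of all genes, 0.20 per h. Members range between FBL at 0.0324 and POLR1B at 0.763 per h in NT, and the POLR1B values of all 8 knockdowns lie below its NT value.

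POLR1B, the second largest subunit of RNA polymerase I, was the only member whose label loss was called different, and it was slower in each case. The loss was 0.273 per h in ZMAT3 libraries against 0.765 in NT (adjusted p 0.000343, 0.654% of all genes called), 0.252 in PHF7 against 0.765 (0.000376, 0.361%), 0.319 in ZMAT5 against 0.764 (0.0163, 0.0684%) and 0.412 in ZFP36L1 against 0.763 (0.0475, 0.149%). These 4 tests share NT. At 8 h its T>C rate was 0.642%, 0.531% and 0.278% in ZMAT3 libraries, 0.762% and 0.202% in the PHF7 libraries with coverage, 0.106%, 0.0959% and 0.194% in ZMAT5 libraries and 0.192%, 0.102% and 0.0636% in ZFP36L1 libraries, against 0.00611%, 0.00383% and 0.0129% in NT. Every one of these knockdown libraries was above every NT library, where the rates came from 2, 1 and 4 conversions. At 0 h the rates were 3.73%, 3.58% and 5.01% in ZMAT3, 3.77%, 3.51% and 3.12% in PHF7, and 2.50%, 1.35% and 4.44% in NT, and these overlapped. Without the 8 h libraries the differences kept their sign and none of the 4 was called. In ZFP36L1 and ZMAT5 the call was lost when any single replicate was left out, and in ZMAT3 without replicate 1. In PHF7 it held without replicate 3, while without replicate 1 or replicate 2 POLR1B did not pass the filter on low values, since the shallow library is 1 of the 2 left at 8 h. By limma the call held in ZMAT3 (adjusted p 0.0184) and not in PHF7, ZMAT5 and ZFP36L1 (adjusted p 0.0511, 0.0957 and 0.130, in that order), and in ZFP36L1 it was also lost with T>C reads over reads (adjusted p 0.0876) and with the replicate as a block (adjusted p 0.0652).
The loss was 0.588 per h in BRCA1, 0.317 in CNOT4, 0.466 in MAZ and 0.415 in ZNF706 libraries, and no member was called in those 4 arms (0.0579% of all genes in CNOT4, 0.0402% in MAZ, 0.0137% in ZNF706 and none in BRCA1), by edgeR or by limma. An unadjusted p under 0.05 was found for 3 members in BRCA1 (7.25% of all genes), 4 in CNOT4 (8.21%), 2 in MAZ (6.89%) and 3 in ZNF706 (7.57%), which is near the share over all genes.

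**Figure D5:**
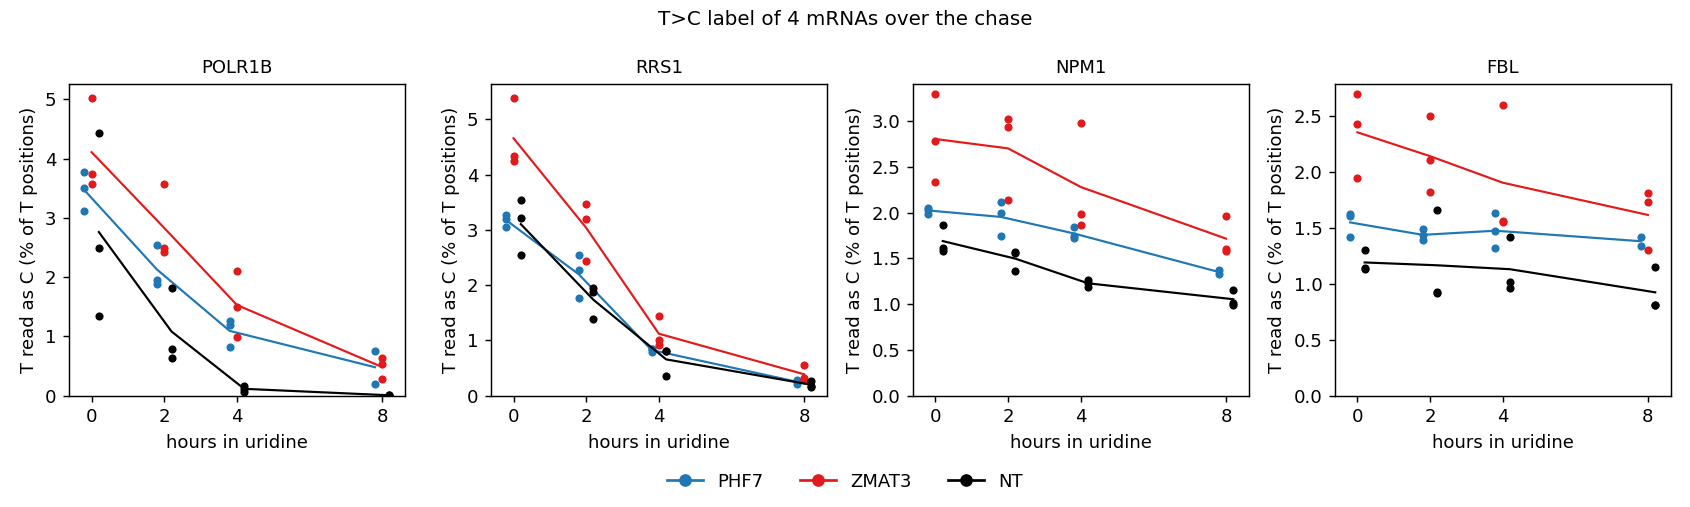
T>C conversions as a percentage of covered T positions (linear axes that start at 0) over chase time in h for POLR1B, RRS1, NPM1 and FBL in PHF7, ZMAT3 and NT libraries, with points for libraries, lines for means and the shallow PHF7 library left out. POLR1B in NT falls to between 0.00383% and 0.0129% at 8 h while the libraries of both knockdowns hold 0.202% or more, and the FBL label falls least.

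The label present at 0 h differed between arms, for members as for other genes. Relative to NT it was higher for 24 members in MAZ libraries (37.9% of 7458 genes called up) and 19 in ZMAT3 libraries (30.7% of 7494), and lower for 4 in ZMAT5 libraries (3.78% of 7307), DDX21, NPM1, NOP16 and RSL1D1, with 0 higher (0.0547%). It was called for no member in the PHF7 (0.174%), ZFP36L1 (0.0408%), ZNF706 (0.0137%), CNOT4 and BRCA1 arms, where an unadjusted p under 0.05 was found for 10 members in PHF7 (24.5% of all genes), 1 in ZFP36L1 (12.3%), 11 in ZNF706 (18.8%), 8 in CNOT4 (8.83%) and 0 in BRCA1 (3.88%). With T>C reads over reads in place of conversions, 10 members were called in MAZ, 0 in ZMAT3, 1 in ZMAT5, 4 in CNOT4 and 0 in the other four arms. The MAZ, ZMAT3 and ZMAT5 counts did not hold when a replicate was left out of both arms, which also leaves fewer libraries to test. Then 0 members were called without replicate 2 in MAZ and without replicate 3 in ZMAT3. In ZMAT5 0 were called whichever replicate was left out. The members' median log2 ratio was 0.77 in MAZ, 0.77 in ZMAT3 and -0.56 in ZMAT5, against 0.84, 0.88 and -0.42 over all genes. NPM1 had a T>C rate of 1.15 ± 0.0598% in ZMAT5 libraries against 1.69 ± 0.155% in NT (SD, n = 3 each). UTP4 and POLR1D had the largest ratios in both MAZ and ZMAT3 libraries, at 1.37 for UTP4 in each, though 99.5% of the UTP4 reads mapped to several places.

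Where the 3′ UTR was concerned, members were short. The merged length had a median of 1127 bases, against 1874 over all tested genes. The letters TATTTAT, read on the mRNA strand, are part of the AU-rich element that ZFP36 family proteins bind, and they stood in 7 members (17.1%), against 37.6% of all tested genes. The sites of members with a called change in ZFP36L1 libraries are shown, with TATTTAT in capitals and hg38 coordinates.
RSL1D1, chr16:11836160-11836188, minus strand: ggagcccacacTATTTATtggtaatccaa
WDR12, chr2:202880685-202880713, minus strand: ttcttattttgTATTTATaataagatagg
RRN3, chr16:15060516-15060544, minus strand: atctttaagcaTATTTATtttctgccact
In ZFP36L1 libraries RSL1D1 was at 0.59 ± 0.08 and WDR12 at 0.44 ± 0.14, both up, and RRN3 at -0.93 ± 0.11, whose direction is uncertain as given above, while BYSL, DDX21, POLR1D and RRP15, the last with 5 such sites, were not called. The median change was 0.14 in the 7 members with the letters and 0.13 in the 34 without.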

How the data were processed

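The deposited tables held, for each library, whole-number counts of reads, T>C reads, multimapped reads, covered T positions and T>C conversions per 3′ UTR interval, which the authors made with SlamDunk 0.4.3 on hg38 with multi-mapping reads kept. The authors also gave CPM per interval and a conversion rate as a fraction. The sources used here do not name the read strand setting, variant mask or base quality minimum. The 69079 intervals were summed to 19761 genes by Ensembl name, and 19175 names were matched to symbols in GENCODE release 44. Of these genes, 2516 share bases with another on either strand.

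Levels were tested on counts with edgeR 4.0.16 (TMM scaling, quasi-likelihood, R 4.3.3) with arm and chase time as factors, p-values were adjusted over all genes by Benjamini-Hochberg, and a call needed an adjusted p under 0.05 and a log2 change past a 1.2-fold change. Label was tested on T>C conversions with the log of T coverage as an offset, for genes over 5 CPM, as loss per h and as label at 0 h, with the same limit on adjusted p. Half-lives came from a first-order fit to conversion rates set to 0 h (R2 over 0.6, and 2 or more replicates above 5 CPM at each chase time), as in the study's methods. The tests were tried on simulated data. Promoter sequence came from RefSeq (GRCh38.p14) and 3′ UTR sequence from hg38.

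The members, the lists of other genes and the 5 arms compared with each other were chosen with earlier results of these data known. Values are given for the up to 5 called members with the largest change in each knockdown whose direction held at all 4 chase times, for members called in label loss, for the 3 members that varied most over the 9 arms, for the longest and shortest half-life in NT and for the member with the most reads. For other genes up to 3 of the largest called changes per knockdown are named. Values of members beyond this rule (TCOF1, the H/ACA proteins, NOB1, the members in the comparisons between knockdowns, and those printed with a sequence) were chosen after their values were seen. Alternatives were DESeq2 1.42.0, limma 3.58.1 on log rates, upper-quartile scaling, no low-count filter, a 20 CPM minimum, no multimapped reads, 0 h libraries only, no 8 h libraries, no libraries under 2000000 reads, T>C reads over reads, log-linear half-lives, no R2 minimum, a replicate block and each replicate left out. Intervals and p-values cover the spread between these libraries.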

Additional observations from a re-analysis of the deposited data

Results flagged for a closer look

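The change of NPM1 in CNOT4 libraries against NT differed between chase times (edgeR quasi-likelihood test of the arm by time interaction, adjusted p 3.1e-05). The log2 change was -1.43 at 8 h and between -0.27 and -0.58 at the earlier times. With the 8 h libraries left out, NPM1 was still called lower. The 3 CNOT4 libraries at 8 h, which the file headers alone call pulse-chase, held 5.82% to 5.91% multimapped reads, against 9.34% to 11.9% in CNOT4 libraries at earlier times, and for NPM1 14.6% to 16.6% against 29.9% to 46.1%. With multimapped reads left out the adjusted p of the interaction was 0.601. Chase time and kind of library cannot be told apart.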

How the results depend on the processing

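Among recomputed values of single members, 731 kept direction and call, 168 kept direction but lost the call and 4 reversed. These totals also hold NHP2 in CNOT4 and GNL3 in ZFP36L1, which were not called in the main test and were kept because their direction reversed. NHP2 was 0.68 and RRP12 -0.12 in CNOT4 when 0 h libraries alone were used, and RRN3 was 0.66 and GNL3 -1.42 in ZFP36L1 without multimapped reads. The cause was not tested. With 0 h libraries alone, which are fewer samples, the members called numbered 12 in CNOT4, 1 in MAZ, 5 in PHF7, 11 in ZFP36L1, 1 in ZMAT3, 2 in ZMAT5 and 0 in ZNF706. DESeq2 called 4 in ZNF706 and 1 at 8 h against 0 h in NT. Without libraries under 2000000 reads the counts were 6 for ZMAT5 against the other 4, 16 for ZFP36L1 against CNOT4 and 3 for chase time in CNOT4, which was 0 without the 8 h libraries and 0 without multimapped reads, both chosen after seeing the data. With T>C reads over reads, label at 0 h gave 4 in CNOT4, 10 in MAZ, 0 in ZMAT3 and 1 in ZMAT5, and label loss 0 in ZFP36L1. Label loss gave 0 in PHF7, ZFP36L1 and ZMAT5 by limma, and 0 in PHF7, ZFP36L1, ZMAT3 and ZMAT5 without the 8 h libraries. Upper-quartile scaling was not run for PHF7, where the shallow library has no upper quartile above 0.

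Log-linear fits gave median half-lives of 3.16 h in BRCA1 (4.29 h by the curve fit), 2.99 h in MAZ (4.74 h), 3.52 h in PHF7 (5.25 h), 3.01 h in ZFP36L1 (4.02 h), 3.93 h in ZMAT3 (5.55 h), 3.79 h in ZMAT5 (5.78 h), 3.37 h in ZNF706 (4.26 h) and 3.25 h in NT (4.01 h). With no R2 minimum they were 5.23 h in BRCA1, 6.18 h in ZMAT5 and 4.33 h in ZNF706.

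With each replicate left out, the count of members called was 15 to 22 in CNOT4, 3 to 4 in MAZ, 4 to 14 in PHF7, 21 to 25 in ZFP36L1, 8 to 11 in ZMAT3, 6 to 7 in ZMAT5 and 1 to 2 in ZNF706. Against the other 4 it was 1 to 3 in MAZ, 9 to 10 in PHF7, 2 to 7 in ZMAT3, 2 to 4 in ZMAT5 and 3 to 7 in ZNF706, and 0 to 11 for ZFP36L1 against CNOT4. Label at 0 h gave 0 to 14 in MAZ, 0 to 17 in ZMAT3 and 0 to 0 in ZMAT5, and label loss 0 to 1 in PHF7, 0 to 2 in ZMAT3 and 0 to 0 in ZFP36L1 and ZMAT5. Median half-lives were 3.78 to 4.27 h in BRCA1, 3.97 to 4.52 h in CNOT4, 4.29 to 4.83 h in MAZ, 5.23 to 5.34 h in PHF7, 3.60 to 4.47 h in ZFP36L1, 3.95 to 6.20 h in ZMAT3, 4.82 to 5.88 h in ZMAT5, 3.53 to 4.46 h in ZNF706 and 3.52 to 3.94 h in NT.

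Replicate numbers were not found to pair the libraries (correlations of deviations between -0.033 and 0.025). With the replicate as a block, label loss in ZFP36L1 gave 0 members. The 4 single calls lost were RRP12 in CNOT4, RRP1B in MAZ, WDR74 in ZMAT3 and the POLR1B label loss in ZFP36L1. No other call of the members changed.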

Other observations

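A further 100 ribosome biogenesis genes were listed by function. In ZFP36L1 libraries 29 were up and 27 down, where 21.7% and 18.3% of all genes were called. CNOT4 libraries had 10 up and 24 down (13.5% and 13.5% of all genes), MAZ 5 and 5 (5.19% and 3.55%), PHF7 0 and 10 (3.89% and 4.53%), ZMAT3 5 and 3 (5.49% and 4.75%), ZMAT5 7 and 6 (5.29% and 4.22%) and ZNF706 3 and 2 (2.85% and 2.29%). BRCA1 libraries had 0 called by edgeR, where 0.0785% of all genes were. PPAN, a large subunit factor, had the largest change of the list, with 42.5 ± 16.5 CPM in CNOT4 libraries against 6.09 ± 3.81 CPM in NT (SD, n = 12 each; edgeR log2 2.81, adjusted p 1.2e-06) and a log2 change of 3.16 in ZFP36L1 libraries. NOP53, which brings the exosome to the large subunit precursor, was up by 1.43 and 2.06 in these arms, and the RNA helicase DDX47 was down by 1.56 in CNOT4 libraries. DHX37, a helicase of small subunit assembly, had log2 changes of -1.02 in MAZ, -0.86 in ZMAT5 and -1.10 in ZNF706 libraries. RSL24D1 rose by 0.59 in MAZ, 0.43 in ZMAT3 and 0.45 in ZNF706 libraries. PHF7 libraries had BMS1, a GTPase of the small subunit processome, at a log2 change of -1.09, and ZMAT5 libraries had the helicase DDX49 at -1.52. These comparisons share the NT libraries.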
